A study of Rattus norvegicus with 47 samples.

Results

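The 240 probe sets described here, of 228 genes, read lower in the medial prefrontal cortex of isolation-reared (Iso) than of socially reared (Soc) Wistar rats at postnatal day 40 (P40), and higher in Iso than in Soc at P60. A probe set is a group of short array probes that together report 1 transcript, and its signal is given on the log2 scale, on which a difference of 1 is a 2-fold change. Members were taken from the 9606 probe sets that carry 1 gene symbol and have a mean log2 signal of at least 5.72 over all arrays. They had an Iso minus Soc difference of group means of -0.4 or less at P40 and of 0.4 or more at P60. Of the 9606, 274 (2.85%) passed both limits, and 34 of these were left out by symbol as the rule asks, among them Rab GTPases, Slc transporters, synaptotagmins and synapsin 2, App, Mbp and Mobp. The opposite pattern, higher in Iso at P40 and lower at P60 by the same limits, was found for 30 probe sets. Members were thus chosen by the differences at P40 and P60, and values at these ages are descriptions without a test. The arrays of P30 and P80 entered the choice through the minimum mean alone, and tests are given at those ages.

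All animals were Wistar rats with no agent or allele given in the labels, and rearing and age are the differences between groups that the labels give. Isolation-reared rats were set against socially reared rats at P30, P40, P60 and P80, and the cortex was dissected and frozen after the animals were culled. The table holds 6 arrays of each group except Iso P40, which has 5. The labels do not say whether an array is 1 animal or a pool, and give neither sex nor batch, so the p-values describe the spread among arrays, and part of that spread may be technical. Arrays 3 and 4 of Iso P30 were unusually alike: they lay 0.116 log2 units apart (root mean square over the kept probe sets), where the next closest of 115 pairs lay 0.175 apart. Their mean was therefore used as 1 sample, which was decided with the values in view. That leaves 5 samples of Iso P30, 5 of Iso P40 and 6 of each other group, 46 in all.

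Adolescence in the rat is a time when the prefrontal cortex is still being remodelled: synapses are added and removed, axons are wrapped in myelin, and inhibitory circuits mature. Rearing alone after weaning is widely used as an early-life stress that leaves lasting changes in behaviour and in this region. The members come from many parts of the neuron's housekeeping and synaptic machinery, including vesicle fusion and retrieval, protein phosphatases and kinases, small GTPases, motors and chaperones, so each is described by its own role.

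The tissue label was checked against cell type markers. All 10 neuronal markers listed passed the minimum mean, with Snap25, the SNARE protein of synaptic vesicle release, at a mean log2 signal of 11.76 and Slc17a7, the vesicular glutamate transporter of cortical neurons, at 10.3. Of the 10 striatal markers listed 6 had a probe set and 5 passed the minimum, at Penk 8.93, Ppp1r1b 7.82, Drd1 6.38, Rgs9 6.32 and Pde10a 5.98, so genes that mark striatum were also detected. In bulk tissue, fewer cells of a type and less RNA per cell cannot be told apart.

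To show what lies upstream of genes whose members read their brightest or only probe set, promoter sequences were taken from RefSeq (rat build GRCr8) for the 4 such genes of largest combined difference that had an entry: Ppm1a (chr6:97178893-97179192, plus strand), Wac (chr17:60617861-60618160, plus strand), Sh3gl2 (chr5:104699020-104699319, plus strand) and Scaf1 (chr1:104634983-104635282, minus strand). Each runs from 250 bases before to 50 bases after the gene's start, 5′ to 3′, and capitals mark matches, on either strand, to the GC box GGGCGG, the core TGACG of the cyclic AMP response element, the E-box CACGTG, the CCAAT box CCAAT and the TATA core TATAA.
Ppm1a: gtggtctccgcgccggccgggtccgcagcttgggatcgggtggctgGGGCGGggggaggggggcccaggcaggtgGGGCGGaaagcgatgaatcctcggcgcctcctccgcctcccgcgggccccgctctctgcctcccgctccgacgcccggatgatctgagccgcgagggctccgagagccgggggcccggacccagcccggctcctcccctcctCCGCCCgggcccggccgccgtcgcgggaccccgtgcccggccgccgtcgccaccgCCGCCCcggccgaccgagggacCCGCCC
Wac: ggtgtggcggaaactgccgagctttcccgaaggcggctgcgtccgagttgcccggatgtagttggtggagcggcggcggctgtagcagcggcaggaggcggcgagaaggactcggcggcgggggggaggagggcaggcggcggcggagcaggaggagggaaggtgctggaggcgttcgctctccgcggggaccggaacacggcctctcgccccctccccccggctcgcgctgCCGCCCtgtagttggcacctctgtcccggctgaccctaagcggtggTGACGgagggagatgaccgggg
Sh3gl2: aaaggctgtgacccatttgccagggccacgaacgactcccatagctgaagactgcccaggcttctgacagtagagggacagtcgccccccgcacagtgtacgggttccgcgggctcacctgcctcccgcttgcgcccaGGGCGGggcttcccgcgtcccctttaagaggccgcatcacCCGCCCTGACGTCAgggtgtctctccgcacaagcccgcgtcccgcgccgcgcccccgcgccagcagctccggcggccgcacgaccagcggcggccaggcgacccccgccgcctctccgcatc
Scaf1: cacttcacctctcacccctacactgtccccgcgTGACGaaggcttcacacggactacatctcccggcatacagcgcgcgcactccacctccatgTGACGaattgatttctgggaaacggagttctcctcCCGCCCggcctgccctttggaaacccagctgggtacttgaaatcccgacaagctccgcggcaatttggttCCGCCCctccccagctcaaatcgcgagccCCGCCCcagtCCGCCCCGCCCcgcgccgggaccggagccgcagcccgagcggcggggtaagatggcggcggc
These windows are rich in G and C, from 66.0% in Scaf1 to 81.0% in Ppm1a, against a median of 64.3% over the 189 member genes with an entry and 62.0% over the 6618 genes of all kept probe sets with one. None of the 4 held an E-box, a CCAAT box or a TATA core. In the Sh3gl2 window a forward and a reverse core overlap, giving the full response element TGACGTCA. Over member genes, the GC box was found in 72.5% of windows, against 66.0% for genes of all kept probe sets and 34.9% for all 27457 promoters in the table. For the TGACG core the shares were 31.7% of member genes, 34.1% of genes of all kept probe sets and 22.0% of all promoters, for the E-box 8.47%, 9.91% and 6.65%, for the CCAAT box 42.3%, 38.0% and 37.7%, and for the TATA core 12.7%, 12.3% and 26.1%. Against genes of all kept probe sets, member shares were higher for the GC box, the CCAAT box and slightly the TATA core, and lower for the TGACG core and the E-box. The gap was largest for the GC box, and these differences were not tested. A match is only a run of letters and says nothing of binding.

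Averaged over the 240 members, the samples of a group lay close together, and the groups lay apart. At P40, Iso samples averaged 6.411 ± 0.0358 (SD, n = 5) and Soc samples 6.993 ± 0.0169 (n = 6), and at P60 Iso samples averaged 7.192 ± 0.0112 and Soc samples 6.497 ± 0.00892 (n = 6 each), which is the pattern the rule asks for. At the ages that the rule did not use, Iso samples averaged 7.1 ± 0.0374 at P30 (n = 5) against 7.203 ± 0.0141 in Soc (n = 6), and 6.608 ± 0.0246 at P80 against 6.706 ± 0.0204 in Soc (n = 6 each). The mean of all 12148 kept probe sets stayed between 7.514 and 7.529 in every group, a level that the scaling of the arrays holds nearly fixed, and the median linear signal of an array averaged 73.12 (Iso P80) to 78.09 (Iso P30) by group. In Iso the mean was high at P30 and P60 and low at P40 and P80, while in Soc it was high at P30 and P40 and low at P60 and P80. The 2 lowest groups of a member were Iso P40 and Soc P60 in 103 of 240 cases (42.9%), against 3.82% of all kept probe sets, and both groups were chosen to be low. The highest group was Soc P30 in 101 members, Iso P60 in 66, Iso P30 in 38, Soc P40 in 29 and Soc P80 in 6.

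**Figure D1:**
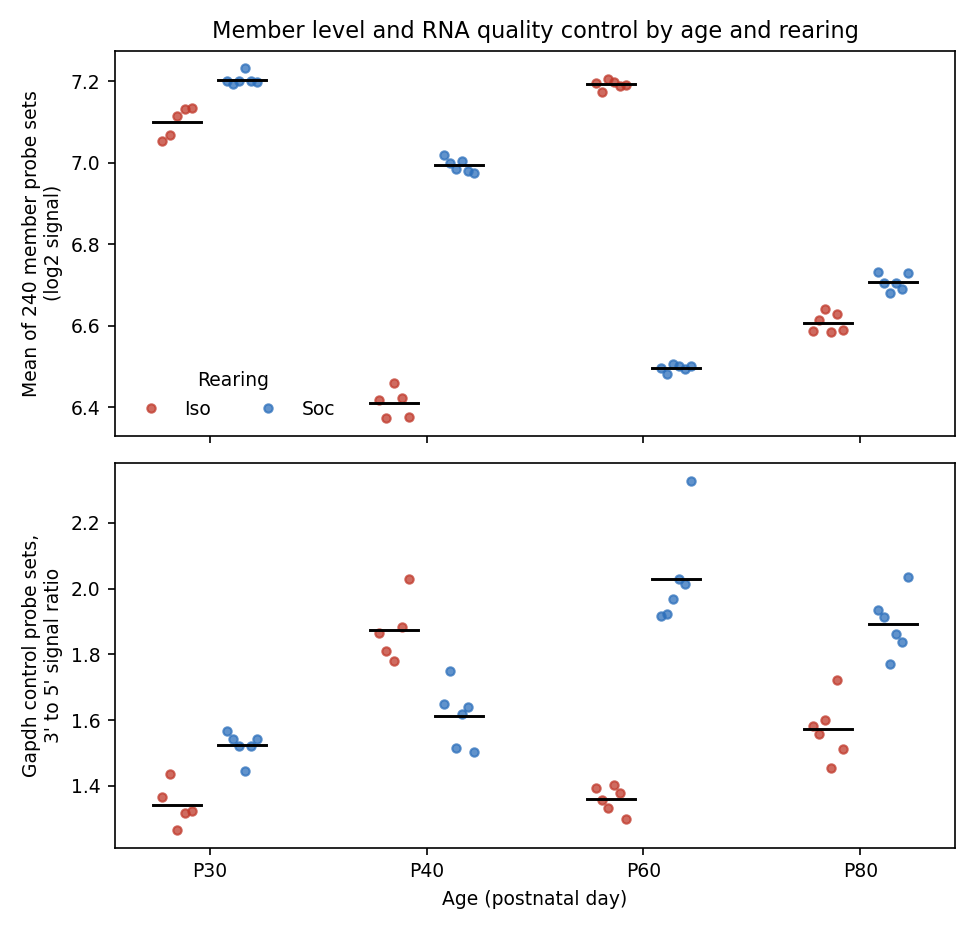
Upper panel: mean log2 signal of the 240 members in each sample by age, Iso left of Soc, with a bar at the group mean; lower panel: signal ratio of the 3' to the 5' Gapdh control probe sets in the same samples. Iso P40 (6.374 to 6.46) and Soc P60 (6.481 to 6.507) are the lowest groups in the upper panel, and at P40 and P60 the group that is lower there is the higher in the lower panel.

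A measure of RNA integrity moved with these groups. The array carries control probe sets at the 3' and 5' ends of Gapdh, a glycolytic enzyme, and of beta-actin, and the ratio of their signals is larger where the 5' end of the transcript is less well represented in the labelled RNA. The Gapdh ratio was 1.342 ± 0.0642 in Iso and 1.523 ± 0.0416 in Soc samples at P30, 1.874 ± 0.0968 in Iso and 1.612 ± 0.0914 in Soc at P40, 1.36 ± 0.0388 in Iso and 2.03 ± 0.154 in Soc at P60, and 1.572 ± 0.0912 in Iso and 1.893 ± 0.0907 in Soc at P80. In all 4 ages the Iso and Soc samples did not overlap (exact two-sided permutation test, adjusted p = 0.00577 at each age over 8 tests). The ratio was thus higher in Iso at P40, where the members' mean was lower in Iso, and lower in Iso at P60, where it was higher in Iso, while at P30 and P80 both the ratio and the members' mean were lower in Iso. For actin the ratio was 4.198 ± 0.692 in Iso and 3.976 ± 0.323 in Soc at P40 (exact permutation test, adjusted p = 0.554), and 3.944 ± 0.196 in Iso and 4.742 ± 0.379 in Soc at P60 (adjusted p = 0.00577). With the Gapdh ratio of each sample as a covariate, 368 probe sets met the rule, 172 of them among the 240, and 234 of the 240 kept both signs with median differences of -0.532 at P40 and 0.701 at P60. These are the differences that chose the members, so nothing is read from the signs kept. Because the ratio did not overlap between Iso and Soc, the fit rests on its spread within groups and cannot separate it from rearing. The part of RNA integrity in the choice of members was not tested.

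The members spanned a wide range of sizes. At P40 their differences, Iso minus Soc, ran between -1.521 and -0.403 with a median of -0.516, against a median of 0.008 over all kept probe sets. At P60 they ran between 0.4 and 1.511 with a median of 0.655, against -0.023 over all kept probe sets. All Iso samples lay under all Soc samples at P40 in 160 members, where 7.30% of all kept probe sets did so, and all Iso samples lay above all Soc samples at P60 in 209 members, where 14.4% of all did so and 16.4% had all Iso samples below; since the rule used both contrasts, nothing is read from these counts. The single limits were passed by 5.01% of the 9606 probe sets at P40 and 10.5% at P60. Close to the limits, the members just inside were Myh9 (-0.45 at P40 and 0.4 at P60), Ttyh1 (-0.418 and 0.402) and Bcat1 (-0.403 and 0.603), and the probe sets just outside were those of Tmem151a (-0.399 and 0.771), Cul4b (-0.726 and 0.399) and Apcdd1 (-0.396 and 0.435).

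**Figure D2:**
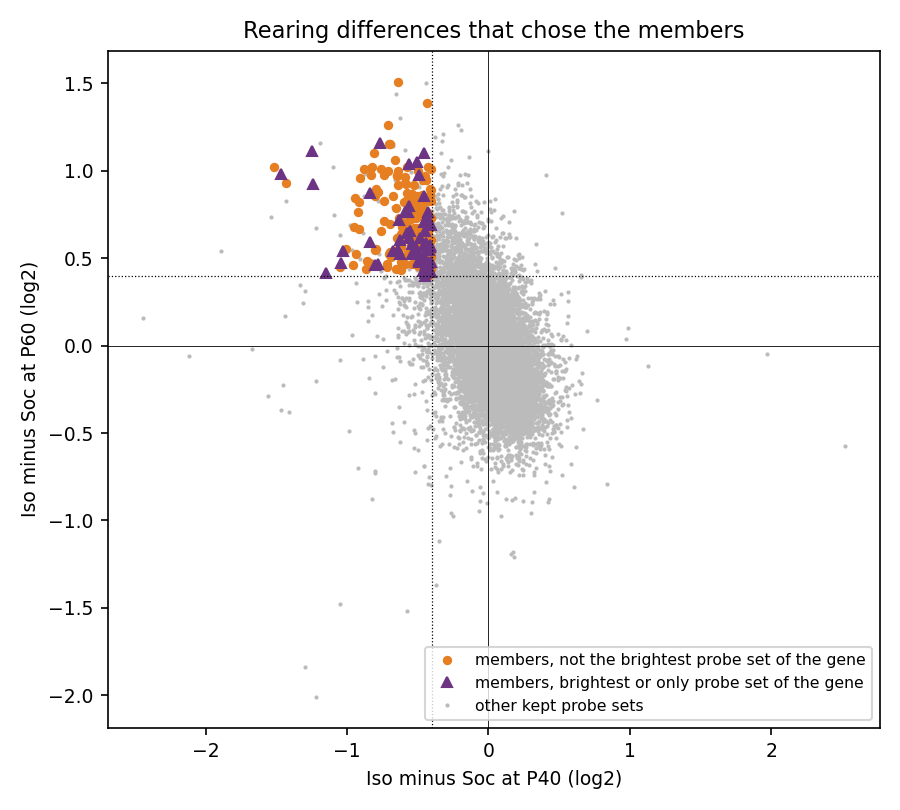
Iso minus Soc difference at P60 (log2) against that at P40 (log2) for each of the 12148 kept probe sets, with the limits of the rule as dotted lines; orange dots and purple triangles are members that are not, and that are, the brightest or only kept probe set of their gene. The cloud of all probe sets is centred near 0 on both axes, and the members fill its upper left corner down to -1.521 at P40 and up to 1.511 at P60; unmarked dots there are probe sets left out by symbol or without 1 symbol.

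What the members share beyond the rule is their place among the probe sets of their genes. Where a gene had several kept probe sets, the member was usually a dim one: 184 of 240 members (76.7%) were not the brightest kept probe set of their gene, against 17.8% of the 9606 probe sets. Of the 228 genes, 179 (78.5%) had more than 1 kept probe set, against 17.8% of all 7895 genes. Seen from the array, 10.8% of the 1711 probe sets that are not the brightest of their gene were members, against 0.498% of the 1405 that are the brightest of several and 0.755% of the 6490 that are the only one. Members were also dim in general, with a median mean log2 signal of 6.63 against 7.29, and 107 of them lay among the dimmest of 4 equal classes of mean signal, 72 and 42 in the next classes up and 19 in the brightest. Names ending in _a_at, which mark probe sets designed to several transcripts of 1 gene, made up 12.1% of members and 4.15% of the 9606.

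The brightest other probe sets of the same genes had, at the median, almost no rearing difference at P40 and P60. For 176 of the 228 member genes there was at least 1 further kept probe set that was no member and so, by the choice, could not pass both limits, and the brightest of these was brighter than the member in 172 and dimmer in 4. Those probe sets had a median rearing difference of -0.042 at P40 and -0.032 at P60, where the members of the same genes had -0.517 and 0.696. Their sign was below 0 at P40 and above 0 at P60 for 63 genes and the reverse for 50, only 4 reached -0.4 or less at P40, and 12 reached 0.4 or more at P60. Their mean level stayed between 9.053 and 9.123 in all 8 groups, with the lowest value in Iso P40 and the highest in Soc P30. Where in the transcript each probe set lies was not analysed here.

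**Figure D3:**
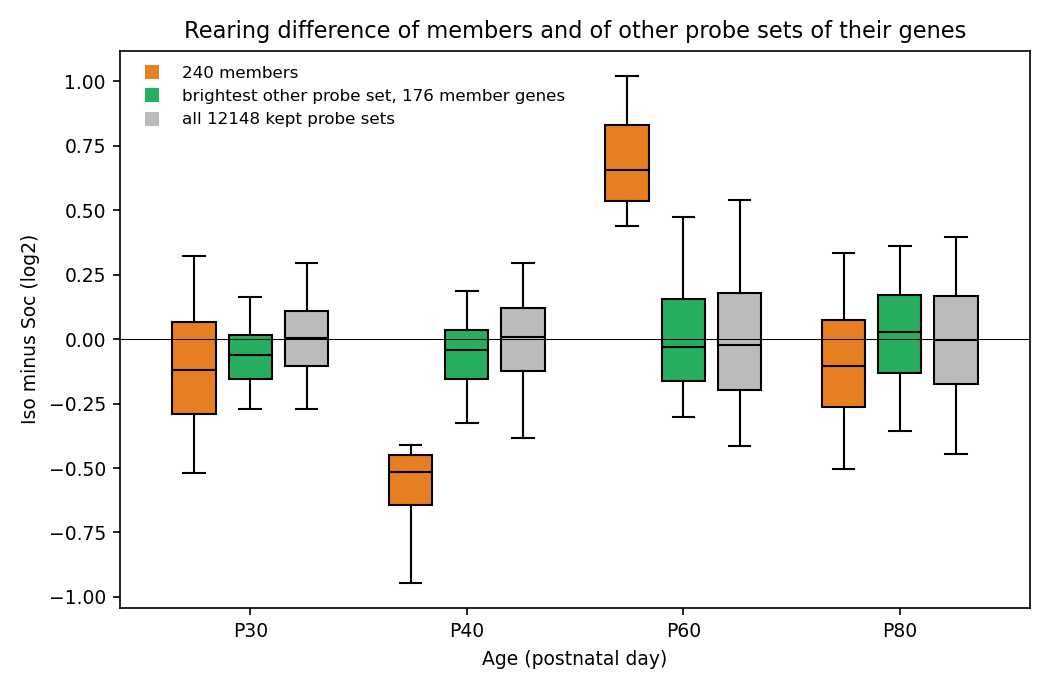
Iso minus Soc difference (log2) at each age for the 240 members (orange), for the brightest other kept probe set of 176 member genes (green) and for all 12148 kept probe sets (grey); boxes span the quartiles with the median as a line, and whiskers the 5th to 95th percentile. Orange boxes lie away from 0 at P40 and P60 by the rule, while the green medians are -0.042 and -0.032 there.

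At P30, which the rule did not use, the median difference was -0.033 over the 1711 probe sets that are not the brightest of their gene, -0.025 over the 1405 brightest of several and 0.012 over the 6490 only probe sets, so the first 2 medians were alike. At P80 these medians were -0.059, 0.02 and -0.007, with 13.4%, 31.4% and 23.0% called higher and 26.7%, 24.1% and 25.3% lower in Iso. At P40 the medians were -0.138, 0.025 and 0.014, and at P60 0.162, -0.095 and -0.013. The first class, that of most members, thus differed at its median in the members' directions at both of these ages. It includes 184 members, chosen by those differences, so the P40 and P60 medians are a description without a test.

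The 12 members of largest combined difference, that at P60 minus that at P40, are described first, and 2 of these rest partly on a single array. Poldip2, a DNA polymerase delta interacting protein that also acts in mitochondria, read 2.73, 4.84, 5.37, 5.39 and 5.58 in Iso P40 samples, against a lowest, median and highest value of 6.12, 6.31 and 6.57 in Soc P40. Ppm1a, a metal-dependent serine/threonine phosphatase that acts on stress kinases, read 2.87, 5.08, 5.55, 5.89 and 5.91 in Iso P40, against 6.37, 6.46 and 6.81 in Soc P40. In both genes every Iso sample lay under every Soc sample at P40, and without the low array (replicate 2 for Poldip2, replicate 5 for Ppm1a) the difference was -1.01 in place of -1.52 and -0.92 in place of -1.47. A second Poldip2 probe set with a mean signal of 8.39 differed by 0.05 at P40 and 0.08 at P60.

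Atp1b2 encodes the beta-2 subunit of the sodium pump. It read 4.98, 5.08, 5.37, 5.7 and 5.77 in Iso P40 samples, against 6.66, 6.77 and 7.04 (lowest, median, highest) in Soc P40. At P60 its samples read 7.14, 7.47 and 7.77 in Iso and 6.09, 6.55 and 6.67 in Soc, again without overlap. Its brighter probe set, at a mean of 10.28, differed by -0.19 at P40 and 0.13 at P60, the same signs at a much smaller size.

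Sh3gl2 encodes endophilin A1, which bends the membrane when synaptic vesicles are retrieved, and has 1 kept probe set. It read 6.24, 6.35, 6.42, 6.43 and 6.51 in Iso P40, against 6.93, 7.15 and 7.43 in Soc P40, and 7.51, 7.63 and 7.69 in Iso P60, against 6.34, 6.43 and 6.77 in Soc P60. Stx1a, the plasma membrane SNARE syntaxin 1A, read 6.1, 6.23, 6.26, 6.32 and 6.36 in Iso P40, against 6.81, 7.16 and 7.32 in Soc P40, and 7.48, 7.62 and 7.71 in Iso P60, against 6.4, 6.59 and 6.81 in Soc P60. Neither gene had overlapping groups at either age. The brighter probe set of Stx1a (mean 9.65) differed by -0.12 at P40 and 0.41 at P60.

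Of the remaining members of large combined difference, Ppp2r1a, the scaffold subunit of protein phosphatase 2A, averaged 6.79 ± 0.18 in Iso P40 and 7.49 ± 0.11 in Soc P40, and 7.88 ± 0.078 in Iso P60 and 6.73 ± 0.1 in Soc P60. Its brighter probe set (mean 9.43) had the same signs, -0.23 at P40 and 0.64 at P60. Wac, an adaptor linked to histone H2B ubiquitination, averaged 4.84 ± 0.21 in Iso P40 and 6.08 ± 0.13 in Soc P40, and 6.49 ± 0.099 in Iso P60 and 5.57 ± 0.22 in Soc P60. Actr2-ps1 is annotated as a pseudogene of an actin-nucleating subunit, so its probes may also read the parent gene, and it had differences of -1.245 at P40 and 1.107 at P60. Agap3, an Arf GTPase activator at synapses, had the largest single difference at P60, 1.511, while its brighter probe set (mean 9.68) differed by 0.35 there. Minar2 (-0.707 at P40 and 1.257 at P60), Oga, the enzyme that removes O-linked N-acetylglucosamine (-0.882 and 1.009), and the splicing regulator Celf2 (-0.91 and 0.956) completed the 12. For Minar2 and Celf2 the brightest other probe sets differed by 0.01 and -0.08 at P40 and by -0.11 and -0.14 at P60.

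**Figure D4:**
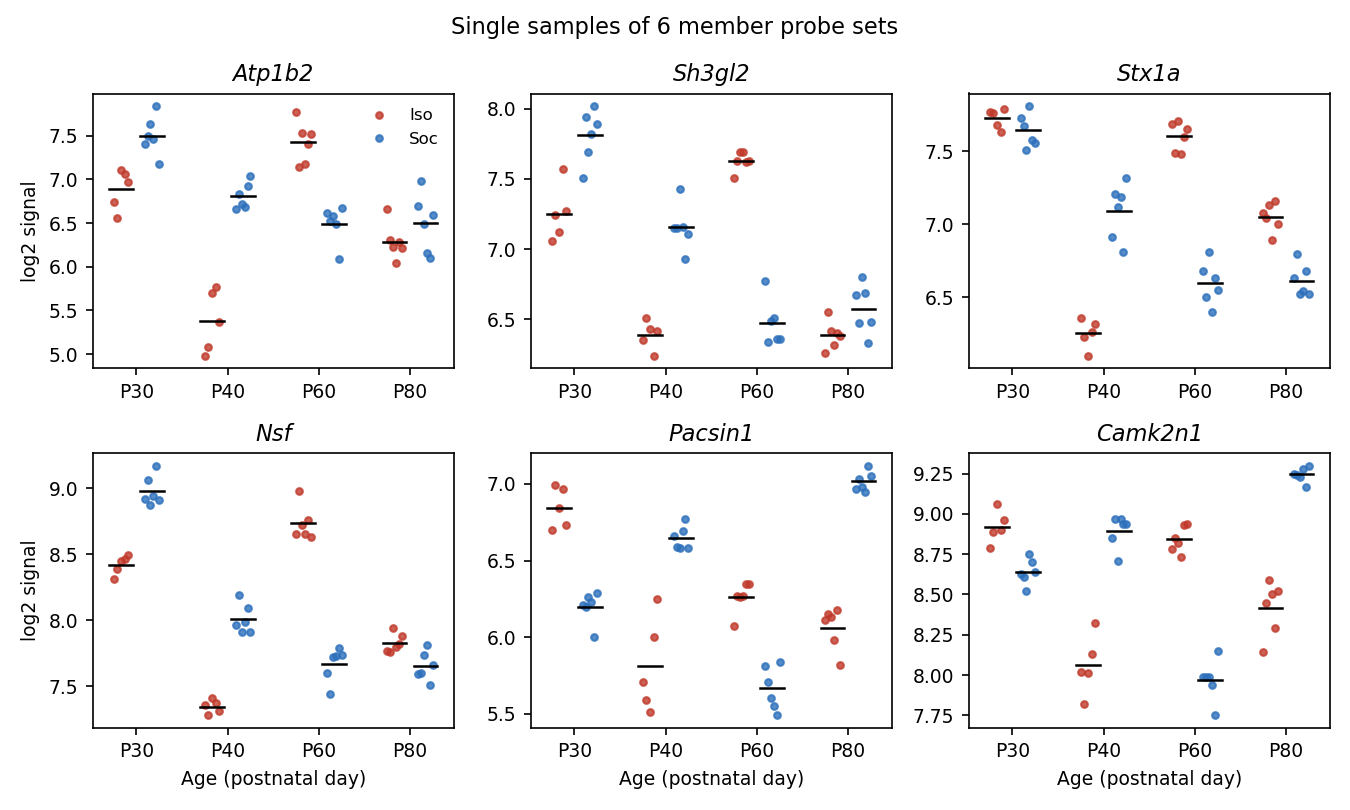
Log2 signal of 6 member probe sets in every sample by age, Iso (red) left of Soc (blue), with a bar at the group mean. Atp1b2, Sh3gl2, Stx1a and Nsf share the low Iso P40 and low Soc P60 groups, while Pacsin1 and Camk2n1 are also far lower in Iso than in Soc at P80 (-0.95 and -0.83).

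At P30, before the ages used for the choice, members were more often lower in Iso. In limma's moderated test, with Benjamini-Hochberg adjustment over all 12148 kept probe sets, 65 members (27.1%) were lower and 17 (7.08%) higher in Iso at P30, and 158 did not pass the threshold of 0.05. Over all kept probe sets 12.3% were called lower and 7.62% higher. The median difference of the members was -0.12, against 0.003 over all. With the actin ratio as a covariate, which was 2.438 in Iso and 3.495 in Soc at P30 (exact permutation test, adjusted p = 0.00577), 42 members were lower and 7 higher. That fit called 1027 of all kept probe sets at P30 in either direction, against 2420 without the covariate. Summed signals of neuronal and astrocyte markers were also lower in Iso at P30, without overlap between the rearing groups, and their part in these calls was not tested. In 47 members all Iso samples lay under all Soc samples and in 13 all lay above, where 7.57% and 2.99% of all kept probe sets did so. The brightest other probe sets of member genes were called lower in 52 and higher in 6 of 176 genes, with a median of -0.061, where 11.7% of the brightest probe sets of all genes were called lower and 7.63% higher.

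The 6 members lower in Iso at P30 by the smallest p were Atp6v1b2, Zfr, Prps1, Nsf, Eif4g2 and Stau2. Nsf, the ATPase that takes SNARE complexes apart after fusion, read 8.31, 8.39, 8.45, 8.46 and 8.49 in Iso P30, against 8.87, 8.93 and 9.17 (lowest, median, highest) in Soc P30. All its Iso samples lay under all Soc samples, and the gene fell by 0.56 ± 0.062 (SE; 1.47-fold lower in Iso; limma adjusted p = 3.2e-09). Atp6v1b2, a subunit of the proton pump that acidifies vesicles, fell by 0.41 ± 0.038 (adjusted p = 1.42e-11), with means of 9.34 ± 0.081 in Iso and 9.75 ± 0.04 in Soc. Zfr, a zinc finger RNA-binding protein, fell by 0.55 ± 0.054 (adjusted p = 1.05e-10), and Prps1, which makes the ribose phosphate donor for nucleotides, fell by 0.52 ± 0.053 (adjusted p = 2.96e-10). Eif4g2, a translation initiation factor for cap-independent starts, fell by 0.45, and Stau2, which carries messenger RNA into dendrites, fell by 0.46. The brightest other probe sets of these genes had differences below 0 at P30, at -0.31 for Nsf, -0.25 for Atp6v1b2, -0.11 for Zfr, -0.02 for Prps1, -0.2 for Eif4g2 and -0.06 for Stau2.

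Pcnp, a nuclear protein rich in PEST sequences, led the 6 members higher in Iso at P30 by the smallest p. It read 6.69, 6.73, 6.81, 6.9 and 6.92 in Iso P30, against 5.54, 5.71 and 5.87 in Soc P30. That is a rise of 1.11 ± 0.096 (SE; 2.15-fold; limma adjusted p = 3.24e-12) with no overlap, while the brighter Pcnp probe set (mean 9.76) differed by -0.08. Pacsin1 (syndapin I, a partner of dynamin in vesicle retrieval, with 1 kept probe set) rose by 0.65 ± 0.092 (1.57-fold; adjusted p = 9e-07). It read 6.7, 6.73, 6.84, 6.97 and 6.99 in Iso P30, against 6, 6.22 and 6.29 in Soc P30, without overlap. Smaller rises were found for Camk2n1, an inhibitor of the calcium/calmodulin kinase CaMKII (0.28 ± 0.069, adjusted p = 0.00273), the ubiquitin ligase Rnf187 (0.29 ± 0.061, adjusted p = 0.000544), the immunophilin Fkbp1a (0.21 ± 0.039, adjusted p = 7.69e-05) and Glul, the glutamine synthetase of astrocytes (0.23 ± 0.052, adjusted p = 0.00134). The Fkbp1a probe set has a name ending in _s_at, which marks probes shared with other genes, so its reading is uncertain. Glul lost its call with the actin ratio as a covariate (0.15). At P30 the brightest Fkbp1a probe set (mean 11.27) differed by -0.213, opposite to the member, and another (mean 10.3) by 0.048. The brighter Glul probe sets differed by -0.097 (mean 10.89) and -0.029 (mean 10.46), and the dimmer Camk2n1 probe set by -0.033.

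At P80, in young adults, the share of members lower in Iso was close to that of the whole array, and the share higher was smaller. In the same fit 71 members (29.6%) were lower and 28 (11.7%) higher in Iso, and 141 did not pass, while 24.2% of all kept probe sets were called lower and 23.5% higher. The median difference of the members was -0.106, against -0.004 over all. All Iso samples lay under all Soc samples in 35 members and above in 8, against 12.9% and 12.1% of all kept probe sets. Of the brightest other probe sets of member genes, 50 were called lower and 58 higher of 176, with a median of 0.026.

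The 6 members lower in Iso at P80 by the smallest p were Adgrl1, Camk2n1, Plppr2, Ina, Pacsin1 and Polr2c. Camk2n1 read 8.14, 8.47 and 8.59 (lowest, median, highest) in Iso P80, against 9.17, 9.24 and 9.3 in Soc P80, and fell by 0.83 ± 0.065 (SE; 1.78-fold lower; limma adjusted p = 1.82e-14). A dimmer Camk2n1 probe set (mean 8.05) went the other way, by 0.21. Pacsin1 read 5.82, 6.12 and 6.18 in Iso P80, against 6.95, 7 and 7.12 in Soc P80, and fell by 0.95 ± 0.087 (1.94-fold lower; adjusted p = 1.42e-12). Adgrl1, latrophilin 1, an adhesion receptor of presynaptic terminals, fell by 0.54 ± 0.037 (adjusted p = 1.77e-16), with means of 8.01 ± 0.053 in Iso and 8.56 ± 0.05 in Soc. In each of these 3 genes the groups did not overlap.

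Plppr2, a lipid phosphatase-related membrane protein of neurons, fell by 0.85 ± 0.068 at P80 (1.8-fold lower; limma adjusted p = 3.38e-14), and its brighter probe set (mean 9.63) was lower by -0.64 as well. Ina, the neurofilament protein alpha-internexin, fell by 1.08 ± 0.091 (2.12-fold lower; adjusted p = 1.32e-13), but this probe set may be shared between genes (_s_at), and its brighter partner (mean 9.47) differed by 0.11. Polr2c, a subunit of RNA polymerase II with 1 kept probe set, fell by 0.59 ± 0.074 (adjusted p = 5.68e-09).

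Higher in Iso at P80 were Shisa5, an endoplasmic reticulum protein induced by p53 in mouse and human cells (0.74 ± 0.098, SE; 1.67-fold; limma adjusted p = 2.51e-08), Rnf187 (0.45 ± 0.058, adjusted p = 1.09e-08), Stx1a (0.43 ± 0.073, adjusted p = 2.64e-06), Irgm2 (0.54 ± 0.09, adjusted p = 2.32e-06), Ifitm3 (0.64 ± 0.12, adjusted p = 1.47e-05) and Arl2bp, which binds the small GTPase Arl2 (0.36 ± 0.063, adjusted p = 7.71e-06). Stx1a samples read 6.89, 7.06 and 7.16 in Iso P80, against 6.52, 6.59 and 6.8 in Soc P80, with no overlap. The brightest other probe sets of Shisa5, Rnf187 and Stx1a differed by -0.05, 0.03 and -0.2, and that of Arl2bp by 0.13. For Shisa5, Rnf187 and Stx1a the rise was thus not shared by the brighter probe set.

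5 members were singled out after their values had been seen, as genes known to be induced by interferon: Irgm2, a GTPase, Ifitm3 and Bst2, membrane proteins that restrict viruses, Cmpk2, a mitochondrial nucleotide kinase, and RT1-S3, a class I molecule. The RT1-S3 probe set has a name ending in _x_at, which marks probes that may read other genes, so its values are uncertain. All 5 had their highest group mean in Soc P40. Irgm2 read 5.47, 5.7, 5.78, 5.84 and 5.9 in Iso P40, against 6.72, 6.73 and 6.89 (lowest, median, highest) in Soc P40, and Ifitm3 read 5.84, 6.03, 6.17, 6.31 and 6.46 in Iso P40, against 7.07, 7.14 and 7.37 in Soc P40. Their groups did not overlap at P40. Bst2 averaged 6.03 ± 0.144 in Iso P40 and 6.81 ± 0.0975 in Soc P40, and was higher in Iso at P80 (0.48 ± 0.11, limma adjusted p = 0.000216). At P80, Cmpk2 and RT1-S3 differed by -0.26 (adjusted p = 0.193) and 0.24 (adjusted p = 0.0593) and did not pass. The other Cmpk2 probe set (mean 7.47) differed by -0.05 at P40, -0.13 at P60 and 0.51 at P80. The other RT1-S3 probe sets (means 6.49 and 6.07) differed by -1.56 and -0.88 at P40, below 0 as the member did, by -0.29 and -0.08 at P60, and by 0.55 and 0.71 at P80. None of the 5 stands on the interferon list examined, whose 8 measured genes had a median difference of -1.426 at P40 and 1.014 at P80, with 7 of 8 higher in Iso at P80, and of 0.056 at P60 with none past 0.4 in either direction. The summed linear signal of the 12 of 13 listed interferon genes with a probe set ran between 1287 and 1345 in Iso P40, 3218 and 3471 in Soc P40, 1524 and 1646 in Iso P60, 1292 and 1367 in Soc P60, 2119 and 2261 in Iso P80 and 1341 and 1513 in Soc P80, and the part of that response in these members' values was not tested.

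**Figure D5:**
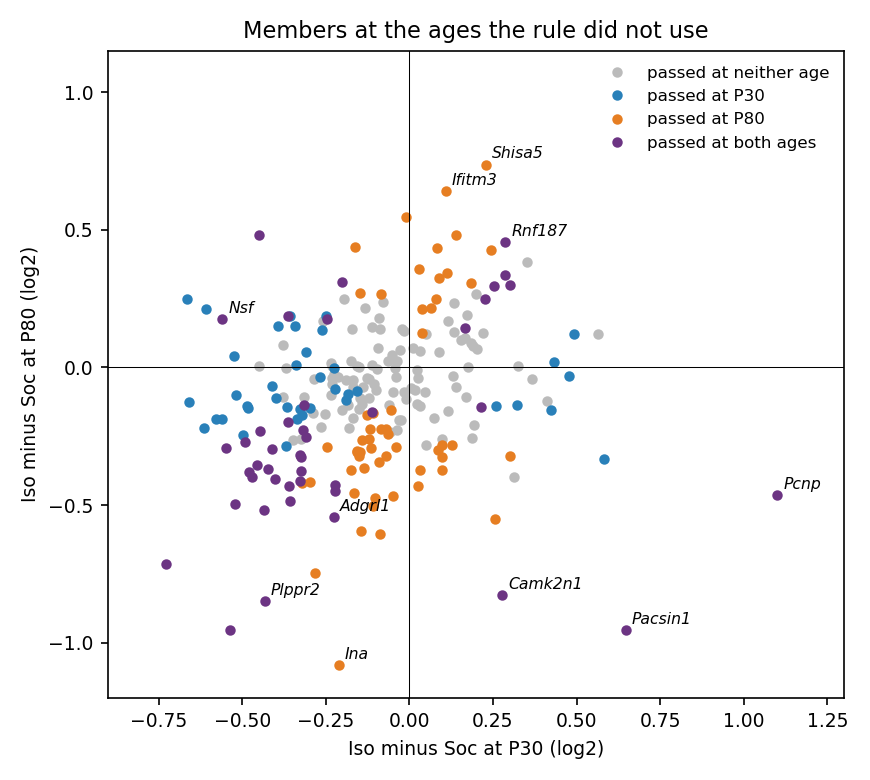
Iso minus Soc difference at P80 (log2) against that at P30 (log2) for the 240 members, coloured by the age at which the limma test was passed. Pcnp, Pacsin1 and Camk2n1 are higher in Iso at P30 and lower at P80, and Nsf the reverse.

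Taking both ages side by side, 28 members were lower in Iso at P30 and at P80, 6 were higher at both, 4 were higher at P30 and lower at P80, 5 were lower at P30 and higher at P80, and 102 passed at neither. These joint counts were not made over all kept probe sets, so nothing is read from them. The change itself, the rearing difference at P80 minus that at P30, was tested in the same fit: 34 members (14.2%) had a higher and 31 (12.9%) a lower difference at P80, and 175 did not pass, against 16.1% and 13.8% of all kept probe sets. The members' median change was 0.044. A changing rearing difference between P30 and P80 was therefore about as frequent among members as on the whole array. The 4 of smallest p were Pacsin1 (-1.6 ± 0.13, SE, limma adjusted p = 6.8e-14), Pcnp (-1.57 ± 0.13, adjusted p = 6.3e-13), Camk2n1 (-1.11 ± 0.095, adjusted p = 7.9e-13) and Nsf (0.74 ± 0.086, adjusted p = 3.68e-09).

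Members fell with age in both rearing groups. Between P30 and P80, 188 members (78.3%) fell and 3 rose in Iso, and 178 (74.2%) fell and 10 rose in Soc, while over all kept probe sets 22.4% were called lower and 25.7% higher in Iso, and 23.6% lower and 26.2% higher in Soc (limma, adjusted over 12148). The median change, P80 minus P30, was -0.509 in Iso and -0.502 in Soc, against 0.007 and 0.014 over all kept probe sets. Both comparisons use the same P30 and P80 samples as the rearing tests. The 56 members that are the brightest or only probe set of their gene fell less often, 34 in Iso (median -0.348) and 28 in Soc (median -0.249), than the 184 others, 154 in Iso (median -0.556) and 150 in Soc (median -0.597); the difference between these classes was not tested. Of the 176 brightest other probe sets of member genes, 31 fell and 59 rose in Iso, and 62 fell and 35 rose in Soc, where 19.6% of all genes' brightest probe sets fell and 26.8% rose in Iso and 20.7% fell and 26.4% rose in Soc. Probe sets that are not the brightest of their gene, the class of most members, fell more often than the array as a whole, 44.0% of 1711 in Iso and 41.9% in Soc. The Gapdh ratio was also higher at P80 than at P30 in both rearing groups (1.572 at P80 and 1.342 at P30 in Iso, 1.893 at P80 and 1.523 at P30 in Soc), and its part in this fall was not tested. In the fit with that ratio as a covariate 171 members fell in Iso and 154 in Soc. There 5184 (Iso) and 4841 (Soc) of the 12148 kept probe sets were called in either direction, against 5855 and 6049 without the covariate. The ratios of P30 and P80 samples did not overlap in either rearing group, so that fit cannot separate the ratio from age.

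Among single genes read by the member probe set, Kif5c, a kinesin heavy chain that carries cargo along axons, fell by 1.68 ± 0.12 in Iso (SE; 3.21-fold lower at P80) and by 1.51 ± 0.11 in Soc, with limma adjusted p-values of 6.35e-16 and 2.22e-15. It averaged 5.31 ± 0.25 at P80 and 7 ± 0.13 at P30 in Iso. Klc1, a kinesin light chain, fell by 1.24 in both rearing groups (adjusted p = 3.2e-21 in Iso and 1.18e-22 in Soc). The brighter Kif5c probe set averaged 7.90 at P80 and 8.13 at P30 in Iso, and 8.62 at P80 and 7.85 at P30 in Soc. The brightest Klc1 probe set averaged 11.47 at P80 and 11.20 at P30 in Iso, and 11.24 at P80 and 11.32 at P30 in Soc. Neither shared the fall of its member in both rearing groups. Nsf fell by 0.59 ± 0.062 in Iso and 1.33 ± 0.059 in Soc (adjusted p = 7.23e-11 and 1.69e-23), while its brighter probe set averaged 10.46 at P80 and 10.39 at P30 in Iso, and 10.40 at P80 and 10.71 at P30 in Soc. Sh3gl2 fell by 0.86 ± 0.09 in Iso and 1.24 ± 0.086 in Soc (adjusted p = 6.24e-11 and 1.35e-16). Pacsin1, Pcnp and Camk2n1 went opposite ways: in Iso they fell by 0.78, 0.69 and 0.51, and in Soc they rose by 0.82, 0.88 and 0.6, which the tests of the change above also cover. Pacsin1 has no other kept probe set. The brighter Pcnp probe set had the reverse order, with 9.98 at P80 and 9.69 at P30 in Iso, and 9.69 at P80 and 9.77 at P30 in Soc. The dimmer Camk2n1 probe set averaged 8.29 at P80 and 7.93 at P30 in Iso, and 8.07 at P80 and 7.97 at P30 in Soc.

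The members were spread over functions. Of 21 functional lists examined, 20 held at least 1 member gene, and 58 of the 228 member genes stood on a list. Over the whole array 228 of 7895 genes were member genes, and no list's count of member genes was tested against that share. Each list is counted by the brightest kept probe set of its genes, which for most member genes is not the member. In endocytosis and the vesicle cycle, 4 of 22 measured genes were member genes (Ap2b1, Necap1, Pacsin1, Sh3gl2), and over the 22 genes 11 were lower and 1 higher in Iso at P30 and 7 lower and 5 higher at P80, against 11.7% lower and 7.63% higher at P30 and 25.1% and 24.5% at P80 over all 7895 genes. Ap2b1, the beta subunit of the clathrin adaptor AP-2, fell at P30 by 0.27 ± 0.09 (limma adjusted p = 0.03). In vesicle fusion, 2 of 19 were member genes (Nsf, Stx1a), with 12 genes lower and 1 higher at P30 and 6 lower and 4 higher at P80. In the vacuolar ATPase, 2 of 18 were member genes, with 10 lower and 1 higher at P30 and 4 lower and 6 higher at P80; of these Atp6v1g1 rose at P30 (0.32 ± 0.085, adjusted p = 0.00471) while Atp6v1b2 fell.

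In calcium and calmodulin signalling, 4 of 26 measured genes were member genes (Camk2b, Camk2g, Camk2n1, Ppp3r1), with 9 lower and 3 higher in Iso at P30 and 8 lower and 7 higher at P80. Ppp3r1, the regulatory subunit of calcineurin, differed by 0.19 at P30 (limma adjusted p = 0.0603) and 0.08 at P80 (adjusted p = 0.382), and fell with age by 0.74 in Iso and 0.63 in Soc. Among protein kinases, 5 of 36 were member genes (Akt1, Fyn, Mapk9, Pak1, Prkcb). Prkcb, a protein kinase C of cortical neurons, fell at P30 by 0.34 ± 0.098 (adjusted p = 0.00961), and Fyn, a Src family kinase, fell at P80 by 0.31 ± 0.072 (adjusted p = 0.0004), where its brighter probe set differed by 0.36. Among serine/threonine phosphatases, 3 of 29 were member genes (Ppm1a, Ppp1r2, Ppp2r1a), of which Ppp1r2, an inhibitor of phosphatase 1, fell at P30 by 0.22 ± 0.048 (adjusted p = 0.000625).

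Arf1, which recruits coats to Golgi vesicles, fell at P30 by 0.2 ± 0.068 (limma adjusted p = 0.0304) and rose at P80 by 0.31 ± 0.065 (adjusted p = 9.83e-05), and its change was 0.51 ± 0.094 (adjusted p = 3.54e-05). Arf3 and Gdi2 passed at neither age (-0.09 and -0.11 at P30, 0.07 and 0.01 at P80). Of 27 measured cytosolic chaperones 6 were member genes, and of these Hsp90ab1, the constitutive Hsp90, fell at P80 by 0.29 ± 0.044 (adjusted p = 3.73e-07), Cct5, a subunit of the chaperonin that folds actin and tubulin, fell by 0.47 ± 0.07 (adjusted p = 2.9e-07), and Hsph1 differed by -0.04. The brighter probe sets of Arf1, Hsp90ab1 and Cct5 differed by -0.05, -0.12 and 0.12 at P80. The ubiquitin list, with 27 measured genes, held no member. Nothing is read from that, since only 228 of all 7895 genes were member genes.

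For receptors of inhibitory and excitatory transmission, Gabbr1, a subunit of the GABA-B receptor, averaged 6.03 ± 0.13 in Iso P40 and 6.46 ± 0.23 in Soc P40, and 7.05 ± 0.14 in Iso P60 and 5.66 ± 0.22 in Soc P60. It rose at P80 by 0.44 ± 0.096 (limma adjusted p = 0.000169), where its brightest probe set (mean 10.43) differed by 0.02. Gabrd, the delta subunit of extrasynaptic GABA-A receptors, differed by 1.148 at P60 and passed at neither P30 (-0.38, adjusted p = 0.122) nor P80 (-0.11, adjusted p = 0.63). Its name ends in _s_at, so its reading is uncertain, and the brighter Gabrd probe set (mean 8.02) differed by 0.08 at P40 and 0.07 at P60. The postsynaptic scaffold genes Dlg1 and Dlgap1 differed by -0.29 (adjusted p = 0.0187) and 0 (adjusted p = 0.992) at P80. Of 13 measured GABA genes 3 were member genes and of 21 measured glutamate receptor and scaffold genes 2 were.

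Cell type lists moved with some groups, and these values stand beside the rearing results above. At P30 the 10 neuronal markers summed to 15443 to 16485 in Iso and 17678 to 18053 in Soc in linear signal, and the 10 astrocyte markers to 12950 to 13813 in Iso and 14435 to 14747 in Soc, both without overlap and lower in Iso, as more members were. The neuronal sums had medians of 15000 in Iso and 16706 in Soc at P40, and of 15675 in Iso and 14460 in Soc at P60. The astrocyte sums had medians of 12630 in Iso and 13663 in Soc at P40, and of 13246 in Iso and 13408 in Soc at P60. At these ages the ranges of Iso and Soc overlapped for both lists. At P80 the 9 of 10 microglial genes with a probe set summed to 3350 to 3612 in Iso and 2831 to 3184 in Soc. Bright genes weigh most in that sum, and the brightest, Ctss (mean 10.92), differed by 0.36 at P80. Of the 8 microglial genes that passed the minimum mean, 2 were called higher and 2 lower in Iso at P80, with a median of -0.053. At P60 the 8 of 10 endothelial and mural genes summed to 1064 to 1150 in Iso and 1255 to 1387 in Soc. Summed linear signals of the 10 listed oligodendrocyte genes with a probe set, of 11, ran between 8362 and 9306 in Iso P40 and 10069 and 11076 in Soc P40, and between 8954 and 10251 in Iso P60 and 9419 and 11429 in Soc P60. The 5 of 8 choroid plexus and ependyma genes with a probe set summed to 196 to 255 in Iso P30 and 875 to 1011 in Soc P30, and to 363 to 403 in Iso P40 and 163 to 269 in Soc P40, the P30 gap carried by Ttr, which differed by -3.11, while Folr1, Sostdc1, Kcne2 and Foxj1 did not pass the minimum mean. The 15 of 17 immediate early genes with a probe set summed to 2666 to 2887 in Iso P30 and 4807 to 4976 in Soc P30, 3207 to 3317 in Iso P40 and 4812 to 5168 in Soc P40, 2831 to 3012 in Iso P60 and 5108 to 5425 in Soc P60, and 3307 to 3468 in Iso P80 and 3972 to 4166 in Soc P80. No listed immediate early gene was a member, and of the cell type markers Thy1, Cldn11, Cnp and Aqp4 were member genes, each through a probe set dimmer than the one used for the sums. The part of these lists in the members' differences was not tested.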

How the data were processed

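RNA of the medial prefrontal cortex was hybridised to 1-colour Affymetrix arrays, per the labels' protocols. The deposited values are log2 signals that the authors made with MAS5, per the submitters' processing notes, and the version and settings are not given in the sources used here. Of 20249 probe sets that are no controls, 12148 with a mean log2 signal of at least 5.72 were kept, and no further normalization was applied. Precision is limited by the number of arrays. Symbols come from the platform's annotation, and 14567 of the 14613 probe sets with 1 symbol matched the RefSeq gene table of GRCr8.

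Means of the 8 groups were fitted with limma 3.58.1 in R 4.3.3 (empirical Bayes with a trend, 38 residual degrees of freedom), with p-values adjusted by Benjamini-Hochberg over all kept probe sets. The contrasts tested were Iso minus Soc at P30 and at P80, their change, and P80 minus P30 within Iso and within Soc. The code of the fit was run on simulated data with independent noise and few changed probe sets. That setting is unlike these data, so nothing is read from it about the calls above. Python 3.11.15 was used for an exact permutation test of the control ratios (scipy 1.17.1) and for the plots (matplotlib 3.10.9).

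The members and lists were chosen with earlier results of these data known. Genes named, by the probe set of largest combined difference of each gene, are the 12 members of largest combined difference, the 6 members of smallest p in each direction at P30 and at P80, the 4 of smallest p for the change, up to 3 members of each functional list, and those nearest the limits, and others are said to have been chosen after their values were seen. Alternatives were another normalization, floor, filters, limits, control ratios as covariates, the replicate block and leaving out each sample. Samples of the same replicate number did not deviate together (correlations of -0.089 to 0.087, with the own number highest in 2 of 22), so the numbers were not taken as pairs.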

Additional observations from a re-analysis of the deposited data

Results flagged for a closer look

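A single sample stood apart from the rest of its group in 12 of the 176 groups of samples examined (12 named members in all 8 groups and 20 more in the 4 groups of P30 and P80), where chance gives about 1 in 20. In Iso P40 the lowest sample of Poldip2 read 2.73 against 4.84 to 5.58 in the others, and that of Ppm1a read 2.87 against 5.08 to 5.91. Wac had 3 such groups, with a highest sample of 6.62 in Iso P30 (others 6.2 to 6.28), a highest of 5.19 in Iso P40 (others 4.7 to 4.83) and a lowest of 5.82 in Soc P40 (others 6.08 to 6.18). Ppp2r1a had a lowest sample of 7.88 in Iso P30 (others 8.08 to 8.14) and of 8.1 in Soc P30 (others 8.18 to 8.22). Glul had a lowest sample of 8.57 in Iso P80 (others 8.67 to 8.72) and a highest of 9.29 in Soc P30 (others 8.98 to 9.07). The lowest samples of Pacsin1 (6, others 6.2 to 6.29) and Atp6v1b2 (9.67, others 9.74 to 9.77) in Soc P30 and of Atp1b2 in Soc P60 (6.09, others 6.49 to 6.67) also stood apart.

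The 32 named members examined here were the 12 of largest combined difference and 20 more picked by smallest p. Members named only from the functional lists, such as Arf1 above, were not among them. A pick by p favours members that pass, so their count is not set against the 16.1% higher and 13.8% lower over all kept probe sets. For 22 of the 32 the rearing difference changed between P30 and P80, by limma's test of that change. It became lower for Pacsin1 (change -1.6; -0.95 at P80 and 0.65 at P30), Pcnp (-1.57; -0.46 and 1.11), Camk2n1 (-1.11; -0.83 and 0.28), Oga (-0.51; -0.03 and 0.48) and Fkbp1a (-0.36; -0.14 and 0.21); of these Oga did not pass at P80 and the others passed at both ages. It also became lower for Ina (-0.87; -1.08 and -0.21), Polr2c (-0.45; -0.59 and -0.15), Plppr2 (-0.42; -0.85 and -0.43) and Adgrl1 (-0.32; -0.54 and -0.23), where the estimates were below 0 at both ages. It became higher for Minar2 (0.93; 0.48 at P80 and -0.45 at P30) and Nsf (0.74; 0.17 and -0.56), which passed as lower at P30 and as higher at P80. The P80 call was lost with the Gapdh ratio as a covariate for Minar2 (0.42) and with the actin ratio for Nsf (0.14). The rearing difference also became higher for Irgm2 (0.56; 0.54 and -0.01), which passed at P80, and for Wac (0.55; 0.15 and -0.39), which passed at P30. It became higher, with estimates below 0 at both ages, for Prps1 (0.42; -0.1 and -0.52), Sh3gl2 (0.37; -0.19 and -0.56), Atp6v1b2 (0.34; -0.07 and -0.41), Zfr (0.26; -0.29 and -0.55) and Eif4g2 (0.22; -0.23 and -0.45). It became higher, with estimates above 0 at both ages, for Ifitm3 (0.53; 0.64 and 0.11), Shisa5 (0.51; 0.74 and 0.23), Stx1a (0.35; 0.43 and 0.08) and Arl2bp (0.33; 0.36 and 0.03).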

How the results depend on the processing

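Of 149 counts compared with an alternative, 127 stayed within 1.5 times, 22 moved further and none of the named results reversed its sign. With only probe sets of mean log2 signal of at least 7, 81 of the 240 members were tested, so these counts are out of 81. Of these, 10 were higher and 33 lower in Iso at P30, and 16 and 33 at P80. For the change, 18 had a higher and 15 a lower rearing difference at P80 than at P30. With age, 1 rose and 70 fell in Iso, and 3 rose and 64 fell in Soc, where 4002 of all probe sets were called. Under this filter 2001 probe sets were called at P30, 4109 at P80, 2876 for the change and 4025 with age in Iso, both directions together. Their shares of the probe sets tested were not worked out, so nothing is read from the members' counts. With the actin ratio as covariate, 7 members were higher and 42 lower at P30 among 1027 calls, and 1 rose with age in Iso among 2862 calls. With the Gapdh ratio as covariate, 1591 probe sets were called at P30 and 368 met the rule. Quantile normalization gave 5 members that rose with age in Iso. Limits of 0.3 gave 457 members, limits of 0.5 gave 119, and keeping only the brightest probe set of each gene, chosen after seeing the data, gave 56. The causes of these moves were not tested beyond the fewer probe sets or the other limits themselves.

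Leaving out 1 sample at a time, members that rose with age in Iso numbered 1 to 4 (1 without Iso P80 replicate 2 or Iso P30 replicate 6) and members that fell 183 to 191; in Soc these were 9 to 11 and 172 to 178. Members higher numbered 14 to 17 and lower 55 to 71 at P30, 23 to 29 and 63 to 75 at P80, and 29 to 37 and 27 to 31 for the change, and 229 to 248 probe sets met the rule. Of 2661 named results under an alternative, 36 lost the threshold, among them Celf2 at P30 (-0.37 without a filter) and, with the actin ratio as covariate at P30, Atp1b2 (-0.44), Actr2-ps1 (-0.54), Minar2 (-0.38), Oga (0.45) and Glul (0.15). The change between P30 and P80 was lost for Sh3gl2 (0.33) and Eif4g2 (0.17) without Iso P30 replicate 1, for Ifitm3 (0.42) without Iso P30 replicate 5 and for Oga (-0.43) under quantile normalization. With the replicate number as a block, 17 members were higher and 66 lower at P30 and 29 higher and 71 lower at P80, and no named call changed; the numbers do not pair the samples. The Elavl3 member varied widely within groups (SD 0.34 to 0.56) at a mean log2 signal of 7.38. Its name ends in _x_at, so its reading is uncertain.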
